A study of Mus musculus with 8 samples.

Results

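The genes of cholesterol and fatty acid synthesis, with their regulators and a few genes of sterol transport and storage, were followed in bone marrow cells of adult C57Bl6 mice. The list holds 36 genes chosen by name, of which 34 had a named row among the 24011 named genes of the deposited array table. Acat2 and Soat1 were not analysed here. The study sorted Lin+ cells, positive for surface antigens of mature blood lineages, and a population enriched for haematopoietic stem cells (HSCs), with 4 arrays of each. No treatment or genotype is given for either group. The sample labels describe the enriched cells as LSK (lineage-negative, Sca-1-positive, Kit-positive), CD105+ and CD48neg, whereas the series' design text gives CD150 in place of CD105. Values are log2 levels, so that a difference of 1 is a 2-fold difference, and all differences are HSC-enriched minus Lin+.

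Cells make cholesterol from acetyl-CoA through mevalonate, isoprenoid units, squalene and a series of sterol intermediates. The transcription factors SREBP-1 and SREBP-2, encoded by Srebf1 and Srebf2, are held in the endoplasmic reticulum by Scap and the Insig proteins while sterols are plentiful, and when released they raise transcription of the enzymes. SREBP-2 is known mainly for the sterol genes and SREBP-1 for fatty acid synthesis, in which acetyl-CoA is carboxylated, built into palmitate, elongated and desaturated.

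The arrays separated by sort. Array medians ran from 5.23 to 5.33, and correlations across genes (which are no replicates) were 0.893 to 0.922 between arrays of different groups and 0.978 or more within a group. Of 9 measured HSC marker genes 9 rose, their mean level being 5.39 to 5.55 on Lin+ and 8.56 to 8.65 on HSC-enriched arrays. The list includes Kit, an antigen of the sort, and Slamf1, which encodes CD150, so these genes are not independent of the sort. Of 10 neutrophil marker genes 9 fell. They averaged 11.52 to 11.81 on Lin+ arrays and were unequal among HSC-enriched arrays, at 6.74, 6.66, 9.17 and 8.88 on replicates 1 to 4. Of 9 measured B cell marker genes 9 fell, and they averaged 9.99 to 10.60 on Lin+ arrays and 4.95, 4.88, 6.75 and 5.09 on the HSC-enriched ones. Marker genes of mitosis fell in 9 of 9 cases, with mean levels of 9.24 to 9.45 against 7.62 to 8.20. Of the marker genes of other mature cells, 7 of 7 erythroid, 9 of 9 monocyte and 8 of 10 macrophage genes fell, with mean levels of 8.27 to 9.08, 8.78 to 9.23 and 5.85 to 7.10 on Lin+ arrays against 4.82 to 5.90, 5.03 to 6.05 and 4.78 to 4.88. The part of all these transcripts in the differences below was not tested. In bulk samples such as these, fewer cells of a type and less RNA per cell cannot be told apart. Whether the samples are separate animals is not stated in the labels, so the p-values below cover only the spread between arrays, which may be technical.

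The pathway did not move as a block. Of the 34 measured genes 12 rose and 7 fell in HSC-enriched cells, or 35.3% and 20.6%, against 15.5% and 12.4% of all genes tested (limma, Benjamini-Hochberg adjusted p under 0.05 over all genes). Restricted to genes that exceeded the overall median level on 4 or more arrays, 19 of 33 members passed (57.6%) against 49.2% of 12510 genes. By direction, 12 of these members rose and 7 fell, against 3473 and 2684 of the 12510 genes. The shares of all genes given here and below take in genes of low level. The members' median difference was 0.10, against 0.02 for all genes, and single differences ran from -3.77 for Scd1 to 2.19 for Fads1. The 19 genes that passed were also those whose groups did not overlap on any array, a separation found in 28.9% of all genes. At least 2-fold differences were found for 6 higher members (Fads1, Fads2, Scd2, Stard4, Sqle and Fasn) and 1 lower member (Scd1), against 4.80% and 6.08% of all genes.

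**Figure D1:**
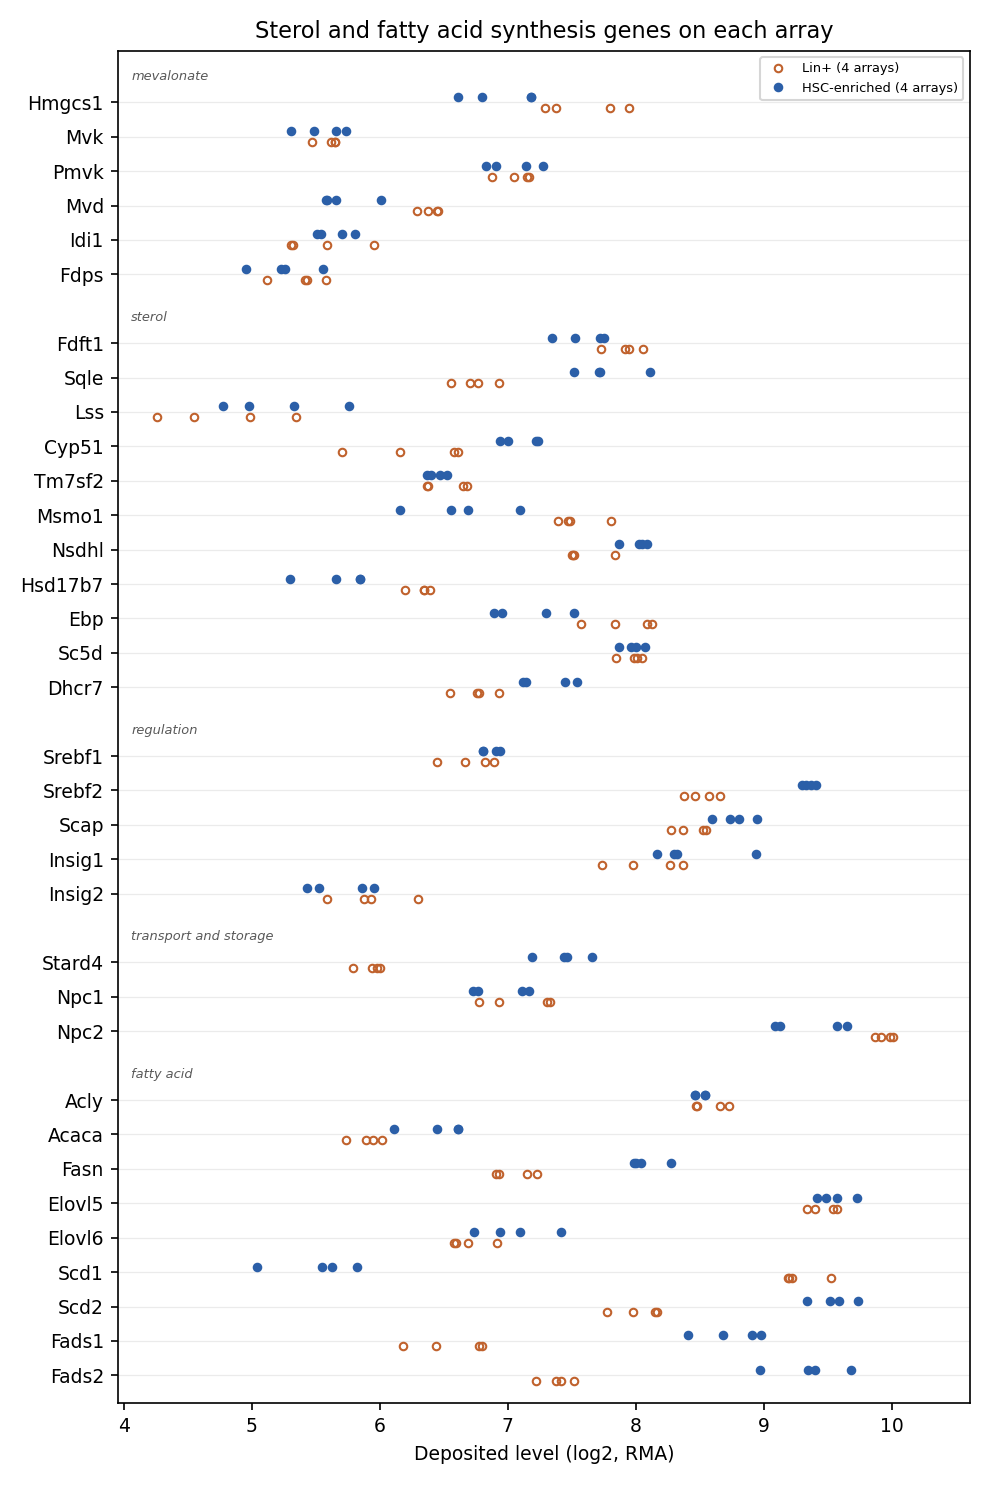
Level of each of the 34 measured genes (horizontal axis, deposited log2 level) on 4 Lin+ arrays (open circles) and 4 HSC-enriched arrays (filled circles), 1 gene per line, grouped by role. The groups stand widest apart for Scd1, at 9.19 to 9.53 on Lin+ and 5.04 to 5.82 on HSC-enriched arrays; levels of different genes come from different probes and are not to be set against each other.

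Of the 6 measured genes of the mevalonate steps, which lead to the isoprenoid building blocks, 2 fell and 0 rose, with a median difference of -0.09. The 33.3% that passed is near the 27.8% of all genes that passed in either direction. Mvd, the decarboxylase that ends the mevalonate part, was at 6.29, 6.46, 6.45 and 6.38 on Lin+ replicates 1 to 4 and at 6.01, 5.59, 5.58 and 5.66 on HSC-enriched replicates 1 to 4. Every HSC-enriched array thus lay below every Lin+ array. Mvd fell by 0.69 (SE 0.12, adjusted p = 0.0015), or 1.61-fold. Its HSC-enriched values were not far above 5.08, the background guide explained below. Hmgcs1, the synthase that makes HMG-CoA, was at 7.29, 7.38, 7.80 and 7.95 on Lin+ arrays and 6.80, 7.18, 7.18 and 6.61 on HSC-enriched arrays. The groups did not overlap, but Lin+ replicates 1 and 2 came close to HSC-enriched replicates 2 and 3. Hmgcs1 fell by 0.66 (SE 0.19, adjusted p = 0.022), and this call depended on single arrays. Leaving out Lin+ replicate 3 gave -0.60 (adjusted p = 0.064), Lin+ replicate 4 gave -0.55 (0.062), HSC-enriched replicate 1 gave -0.61 (0.06) and HSC-enriched replicate 4 gave -0.55 (0.058). The call was also lost against a 1.2-fold null, which asks for a difference beyond 1.2-fold (adjusted p = 0.14). The other 4 genes overlapped between groups. They were the mevalonate kinase Mvk at -0.05 (95% confidence interval -0.31 to 0.22) and the phosphomevalonate kinase Pmvk at -0.02 (-0.31 to 0.26). Idi1, the isomerase of the isoprenoid units, was at 0.10 (-0.25 to 0.45), and Fdps, which makes farnesyl diphosphate, at -0.13 (-0.46 to 0.20). Mvk, Idi1 and Fdps were low on all arrays, at 5.31 to 5.74, 5.31 to 5.96 and 4.96 to 5.58. They were thus near the background guide, and little can be read from their lack of a difference.

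The steps from squalene to cholesterol were mixed, with 4 of 11 genes higher (36.4% against 15.5% of all genes), 3 lower (27.3% against 12.4%) and a median near 0. The first gene of this branch, the squalene synthase gene Fdft1, did not pass (-0.33, interval -0.60 to -0.05, adjusted p = 0.077). Sqle, the squalene epoxidase and a rate-limiting enzyme of the pathway, was at 6.56, 6.77, 6.93 and 6.71 on Lin+ arrays and at 8.11, 7.71, 7.72 and 7.52 on HSC-enriched arrays. All 4 HSC-enriched arrays were thus clear of the Lin+ range, replicate 1 by most, and Sqle rose 2.04-fold (difference 1.03, SE 0.14, adjusted p = 0.0003). Lss, the lanosterol synthase gene, had a Lin+ mean of 4.79, under the background guide of 5.08 (the 95th percentile of olfactory receptor genes), and did not pass (0.42, interval -0.16 to 1). Cyp51, the lanosterol demethylase, was at 5.71, 6.58, 6.16 and 6.61 on Lin+ arrays and 7.00, 7.22, 6.94 and 7.24 on HSC-enriched arrays. Its Lin+ arrays were spread more widely (SD 0.43) than its HSC-enriched arrays (SD 0.15), and it rose 1.78-fold (difference 0.83, SE 0.19, adjusted p = 0.0082).

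The next enzymes, which remove methyl groups from the sterol ring, went in opposite directions. Msmo1, the methylsterol oxidase, was at 7.47, 7.39, 7.49 and 7.81 on Lin+ arrays and 7.10, 6.56, 6.16 and 6.69 on HSC-enriched arrays. It fell by 0.91 (SE 0.19, adjusted p = 0.0039), with HSC-enriched replicate 1 nearest to the Lin+ arrays. Nsdhl, the dehydrogenase that acts on the product of Msmo1, was at 7.52, 7.84, 7.50 and 7.51 on Lin+ arrays and 7.87, 8.03, 8.05 and 8.09 on HSC-enriched arrays. Lin+ replicate 2 reached almost to the lowest HSC-enriched array. Nsdhl rose by 0.42 (SE 0.11, adjusted p = 0.019), a call lost without Lin+ replicate 3 (adjusted p = 0.053), Lin+ replicate 4 (0.052) or HSC-enriched replicate 3 (0.0502). The Nsdhl call was lost against a 1.2-fold null too (adjusted p = 0.39). Hsd17b7, the ketoreductase of the same demethylation, was at 6.20, 6.35, 6.39 and 6.35 on Lin+ arrays and 5.85, 5.85, 5.30 and 5.66 on HSC-enriched arrays, the lowest being replicate 3. It fell by 0.66 (SE 0.13, adjusted p = 0.0039), with HSC-enriched values not far above the background guide.

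Among the last steps, Ebp fell and Dhcr7 rose. Ebp, the sterol isomerase, was at 7.57, 8.09, 7.84 and 8.13 on Lin+ arrays and 7.30, 7.52, 6.96 and 6.89 on HSC-enriched arrays. The second HSC-enriched array lay just under the first Lin+ array, and the difference was -0.74 (SE 0.17, adjusted p = 0.0086). This call was lost against a 1.2-fold null (adjusted p = 0.059). Dhcr7, the reductase that forms cholesterol itself, was at 6.78, 6.55, 6.76 and 6.93 on Lin+ arrays and 7.45, 7.54, 7.12 and 7.14 on HSC-enriched arrays. It rose 1.47-fold (difference 0.56, SE 0.13, adjusted p = 0.0099), a call lost against a 1.2-fold null (0.13). Tm7sf2, a sterol reductase, and Sc5d, the sterol desaturase, overlapped between the groups at -0.08 (interval -0.32 to 0.17) and 0.00 (-0.22 to 0.21).

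**Figure D2:**
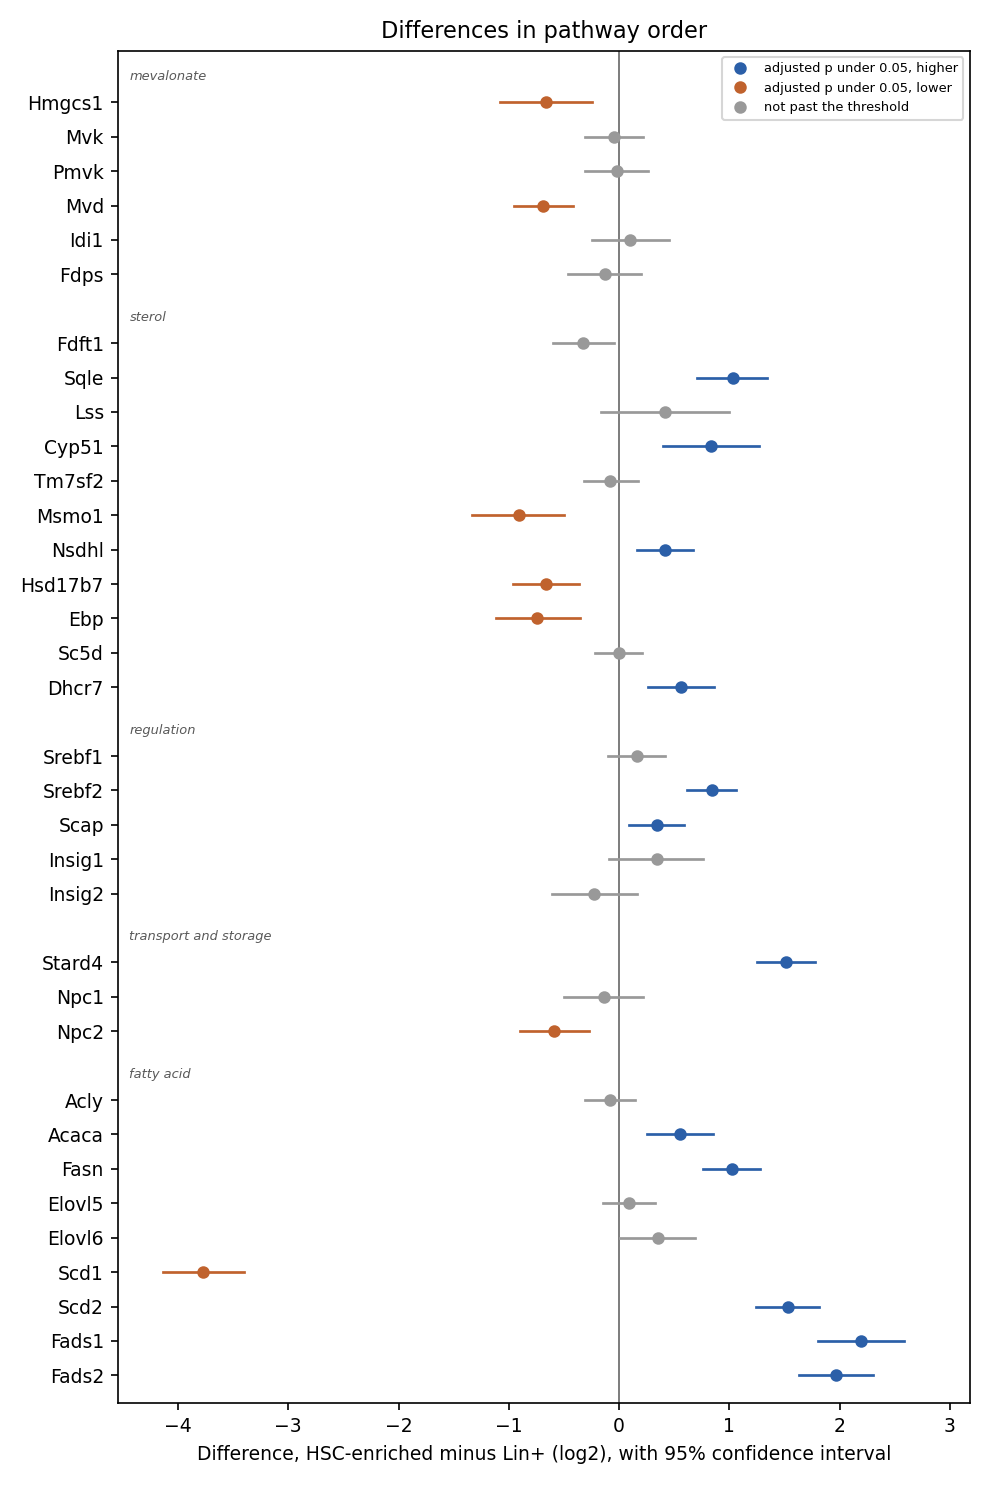
Difference of each measured gene (points, HSC-enriched minus Lin+, log2) with its 95% confidence interval (lines), in pathway order within each role. The sterol branch holds higher and lower genes, from 1.03 for Sqle to -0.91 for Msmo1, and Scd1 stands alone at -3.77.

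Of the regulators, Srebf2 rose and Srebf1 did not pass. Srebf2 was at 8.57, 8.38, 8.46 and 8.66 on Lin+ arrays and at 9.41, 9.30, 9.33 and 9.37 on HSC-enriched arrays. The HSC-enriched arrays lay close together (SD 0.05) and clear of the Lin+ arrays, and Srebf2 rose 1.79-fold (difference 0.84, SE 0.10, adjusted p = 0.00011). Srebf1 differed by 0.16 (interval -0.10 to 0.42). Scap, the escort of the SREBPs, was at 8.55, 8.28, 8.37 and 8.53 on Lin+ arrays and 8.95, 8.81, 8.60 and 8.74 on HSC-enriched arrays. The gap between the groups was small, and the difference of 0.34 (SE 0.11, adjusted p = 0.048) was at the edge of the threshold. The Scap call was lost with each array centred on its median (adjusted p = 0.067), with the replicate number as a block (0.076) and without any one of 6 arrays: Lin+ replicate 2, 3 or 4 or HSC-enriched replicate 1, 2 or 4 (adjusted p = 0.059 to 0.13). It was also lost against a 1.2-fold null (adjusted p = 0.77). Insig1 and Insig2, which retain the SREBPs, did not pass, at 0.34 (interval -0.09 to 0.76) and -0.23 (-0.61 to 0.16). Insig1 was highest on HSC-enriched replicate 4, at 8.94 against 8.17 to 8.32 on the other 3.

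The promoters of 4 genes, picked among members that rose and members that fell, are shown as examples. Each is the run of 250 bases before the start of a RefSeq transcript (GRCm38.p6), 5′ to 3′ in the direction of the gene. Capitals mark TCACNCCA, part of the sterol regulatory element bound by SREBPs, and CCAAT, bound by NF-Y, each on either strand, so that CCAAT on the other strand reads ATTGG. Hmgcs1 (chr13:119690101-119690350, plus strand) and Msmo1 (chr8:64733579-64733828, minus strand) fell, and Srebf2 (chr15:82147019-82147268, plus strand) and Fasn (chr11:120824548-120824797, minus strand) rose. The 4 take in every member whose window held TCACNCCA, so they do not stand for the members at large. The 250 bases before Fads2, which rose and is not shown, held neither run of letters.
Hmgcs1: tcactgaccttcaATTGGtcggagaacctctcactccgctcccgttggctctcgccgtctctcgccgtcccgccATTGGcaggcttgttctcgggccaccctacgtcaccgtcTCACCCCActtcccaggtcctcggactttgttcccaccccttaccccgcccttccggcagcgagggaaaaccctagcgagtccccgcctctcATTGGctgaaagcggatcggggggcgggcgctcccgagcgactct
Msmo1: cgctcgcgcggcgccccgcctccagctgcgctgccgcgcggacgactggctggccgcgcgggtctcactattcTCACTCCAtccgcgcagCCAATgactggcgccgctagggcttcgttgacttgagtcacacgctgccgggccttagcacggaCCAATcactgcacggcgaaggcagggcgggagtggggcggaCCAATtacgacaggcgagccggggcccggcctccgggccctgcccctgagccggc
Srebf2: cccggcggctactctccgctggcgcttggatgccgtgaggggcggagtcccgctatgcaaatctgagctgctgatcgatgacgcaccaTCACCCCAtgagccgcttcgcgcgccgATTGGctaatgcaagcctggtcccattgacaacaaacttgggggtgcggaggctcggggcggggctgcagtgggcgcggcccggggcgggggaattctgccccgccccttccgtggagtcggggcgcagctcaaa
Fasn: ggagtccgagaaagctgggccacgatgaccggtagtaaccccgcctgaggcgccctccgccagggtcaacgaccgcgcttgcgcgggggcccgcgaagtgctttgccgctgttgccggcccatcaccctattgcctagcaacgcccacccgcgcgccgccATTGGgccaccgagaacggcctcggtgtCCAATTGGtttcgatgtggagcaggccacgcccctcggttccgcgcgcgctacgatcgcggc

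Promoter windows of 300 bases, from 250 before to 50 after a start, were at hand for 28 of the 36 listed genes, Acat2 and Soat1 included, as 36 windows. Those of Fdps, Fdft1, Sqle, Stard4, Npc1, Scd1, Scd2 and Fads1 were not used here. TCACNCCA, searched on both strands, was in 3 of the 36 windows, those of Hmgcs1, Msmo1 and Srebf2, against 4.36% of all 32851 windows. The longer form TCACNCCAC, which contains it, was in the Hmgcs1 window alone, against 1.24%. CCAAT, which can overlap the end of TCACNCCA, was in 24 of 36 windows (66.7%) against 37.4% of all windows. GGGCGG, a letter run bound by Sp1, was in 27 (75%) against 35.7%. Counted by gene among genes with a window, CCAAT was in a window of 6 of 6 that fell, 5 of 8 that rose and 11 of 12 that did not pass. Over all windows it was in those of 11096 of 27025 genes. Scd1, which fell, and Sqle, Stard4, Scd2 and Fads1, which rose, are not in these counts. The comparison set is every window of the table, and a match is a description of letters only.

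Among the genes of sterol transport, Stard4 rose and Npc2 fell. Stard4, which carries cholesterol between membranes and is itself a known SREBP-2 target, was at 5.79, 5.94, 5.98 and 6.00 on Lin+ arrays. On HSC-enriched arrays it was at 7.66, 7.46, 7.19 and 7.44, more than 1 log2 unit above every Lin+ array. Stard4 rose 2.85-fold (difference 1.51, SE 0.12, adjusted p = 6.9e-06), from Lin+ values not far above the background guide. Npc2, which hands cholesterol to Npc1 in the lysosome, was at 9.92, 9.99, 9.87 and 10.01 on Lin+ arrays and 9.65, 9.57, 9.13 and 9.09 on HSC-enriched arrays. HSC-enriched replicates 3 and 4 were the lowest, and Npc2 fell by 0.59 (SE 0.14, adjusted p = 0.011). That call was lost against a 1.2-fold null (adjusted p = 0.12). Npc1 overlapped between the groups at -0.14 (interval -0.50 to 0.22).

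In fatty acid synthesis 5 of 9 genes rose (55.6% against 15.5% of all genes) and 1 fell (11.1% against 12.4%), with a median of 0.55 against 0.02 for all genes. Acly, which makes cytosolic acetyl-CoA from citrate, did not pass (-0.08, interval -0.31 to 0.14). Acaca, the carboxylase of the committed step, was at 5.89, 5.95, 5.74 and 6.02 on Lin+ arrays and 6.45, 6.61, 6.61 and 6.11 on HSC-enriched arrays. Replicate 4 lay closest to the Lin+ arrays, and Acaca rose 1.46-fold (difference 0.55, SE 0.13, adjusted p = 0.01), a call also lost against a 1.2-fold null (0.13). Its Lin+ values were not far above the background guide. Fasn, the fatty acid synthase, was at 7.15, 6.91, 7.23 and 6.93 on Lin+ arrays and 8.28, 8.0, 8.04 and 7.99 on HSC-enriched arrays. The groups were well separated, and Fasn rose 2.03-fold (difference 1.02, SE 0.12, adjusted p = 9.2e-05). The elongase genes did not pass, with Elovl5 at 0.09 (interval -0.15 to 0.33) and Elovl6 at 0.35 (0.01 to 0.69, adjusted p = 0.12). Elovl6 passed without HSC-enriched replicate 4, whose level of 6.74 was inside the Lin+ range (difference 0.46, adjusted p = 0.047).

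The desaturases held the widest differences, and the stearoyl-CoA desaturases Scd1 and Scd2, which make monounsaturated fatty acids by the same reaction, went in opposite directions. Scd1 was at 9.53, 9.22, 9.19 and 9.20 on Lin+ arrays and at 5.04, 5.63, 5.82 and 5.55 on HSC-enriched arrays. All HSC-enriched values were near the background guide of 5.08, and replicate 1 was under it. Scd1 fell by 3.77 (SE 0.17, adjusted p = 2.9e-07), a 13.7-fold difference that rests on these near-background values. Scd2 was at 8.15, 7.98, 7.78 and 8.17 on Lin+ arrays and at 9.52, 9.74, 9.34 and 9.59 on HSC-enriched arrays, more than 1 log2 unit apart. Scd2 rose 2.89-fold (difference 1.53, SE 0.13, adjusted p = 1e-05). Scd1 and Scd2 are closely related in sequence, and whether their probes cross-hybridise is not given in the sources used here.

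Fads1 and Fads2, the desaturases that make long polyunsaturated fatty acids, rose together. Fads1 was at 6.18, 6.80, 6.44 and 6.78 on Lin+ arrays and at 8.98, 8.68, 8.41 and 8.91 on HSC-enriched arrays. Fads2 was at 7.38, 7.52, 7.42 and 7.22 on Lin+ arrays and at 9.35, 9.68, 8.97 and 9.40 on HSC-enriched arrays. For both genes HSC-enriched replicate 3 was the lowest of its group and still more than 1 log2 unit above the highest Lin+ array. Fads1 rose 4.57-fold (difference 2.19, SE 0.17, adjusted p = 7.1e-06) and Fads2 3.91-fold (difference 1.97, SE 0.15, adjusted p = 5.4e-06).

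Both desaturase families lie in clusters, Scd3, Scd2, Scd4 and Scd1 in that order and Fads3, Fads2 and Fads1 in that order (RefSeq, GRCm38.p6, used for gene order only). Scd3 was at 3.52 to 3.84 on all arrays, under the background guide of 5.08, and did not pass (0.03). Scd4, at 3.37 to 3.75 on Lin+ and 3.87 to 4.17 on HSC-enriched arrays, was under the guide throughout. Its difference of 0.38 (adjusted p = 0.039) lost the call with centring (0.06), with the replicate block (0.064) and without HSC-enriched replicates 3 and 4 together (0.075). It also lost the call on leaving out any single array but Lin+ replicate 2 (0.056 to 0.1). Fads3 rose 1.48-fold (0.57, adjusted p = 0.025), with HSC-enriched replicate 3 at 6.45 against a Lin+ maximum of 6.44. The Fads3 call was lost with that block (0.058), and on leaving out Lin+ replicate 1 or 2 or HSC-enriched replicate 1 or 4 (0.064 to 0.067). Of the next protein-coding genes outside the clusters, Pkd2l1 (0.10) and Wnt8b (-0.24) beside the Scd genes and Fen1 (-0.39) beside Fads1 did not pass. Fen1 passed without HSC-enriched replicate 1 (-0.56, adjusted p = 0.0069). Pkd2l1 and Wnt8b were under the guide on every array, and the values of Fen1 lay around it. Little can thus be read from the lack of a call for these neighbours. Rab3il1 beside Fads3 fell by 0.60 (adjusted p = 0.024), a call lost with the block (0.067), without HSC-enriched replicates 3 and 4 together (0.1) and without Lin+ replicate 2, 3 or 4 or HSC-enriched replicate 2 or 3 (0.056 to 0.07).

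**Figure D3:**
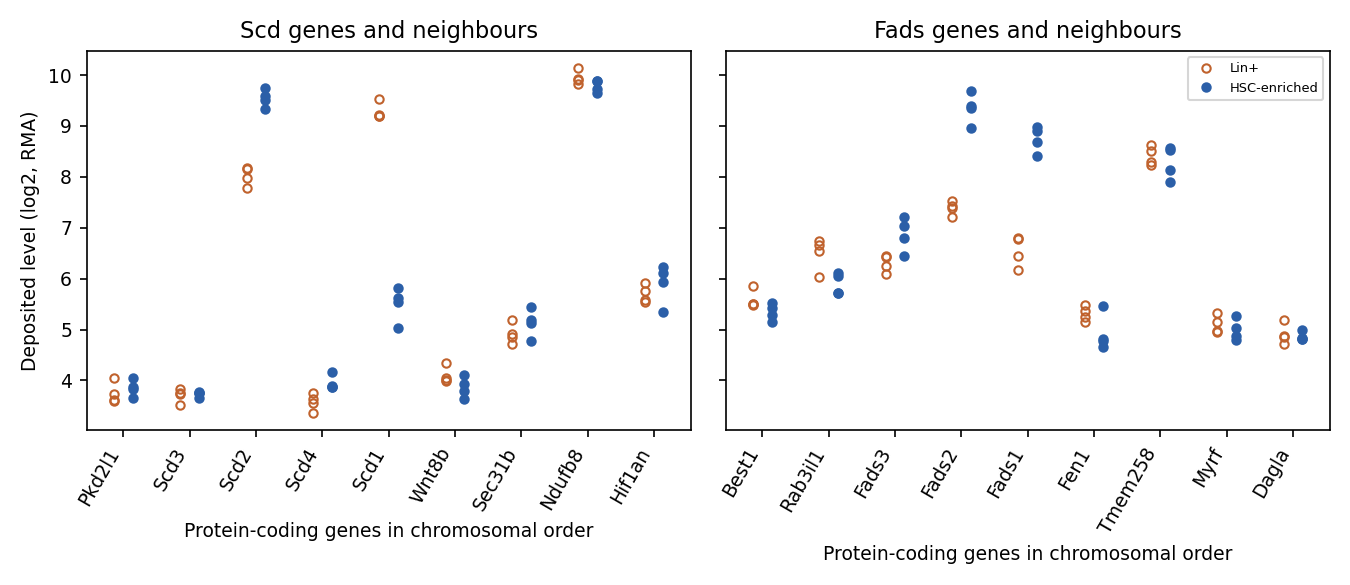
Deposited log2 level of the Scd genes (left) and Fads genes (right) with their nearest protein-coding neighbours, in chromosomal order and not to scale, on 4 Lin+ arrays (open circles) and 4 HSC-enriched arrays (filled circles). Scd2 and Scd1 differ in opposite directions within 1 cluster, at 1.53 and -3.77, while Fads2 and Fads1 are both higher, at 1.97 and 2.19.

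The arrays of one group differed from each other in the members about as much as in other genes. The median SD among Lin+ arrays was 0.16 for members and 0.18 for all genes, and among HSC-enriched arrays 0.21 and 0.18. The widest spreads were those of Lss, at an SD of 0.48 on Lin+ and 0.43 on HSC-enriched arrays.

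HSC-enriched replicates 3 and 4, which had more neutrophil transcript, differed from replicates 1 and 2 in several members. Of the 7 lower genes 6 were farther from Lin+ on replicates 3 and 4 than on replicates 1 and 2: Npc2 at -0.83 against -0.34, Ebp at -0.98 against -0.50, Msmo1 at -1.11 against -0.71, Hsd17b7 at -0.84 against -0.48, Mvd at -0.78 against -0.60 and Hmgcs1 at -0.71 against -0.61. Scd1 was nearer, at -3.60 against -3.95. Of the 12 higher genes 10 were nearer to Lin+ on replicates 3 and 4, such as Dhcr7 at 0.37 against 0.74 and Fads2 at 1.80 against 2.13. Neither count was made over all genes, so whether other genes shifted in the same way is not known. The part of neutrophil transcript in these shifts was not tested. Without replicates 3 and 4, 11 members rose and 4 fell, against 13.1% and 9.96% of all genes. Hmgcs1 (-0.61, adjusted p = 0.082), Ebp (-0.50, 0.093), Npc2 (-0.34, 0.091) and Nsdhl (0.36, 0.14) then lost their calls, whereas Scd1 (-3.95), Fads1 (2.27), Fads2 (2.13), Stard4 (1.64), Scd2 (1.61) and Sqle (1.17) differed more.

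**Figure D4:**
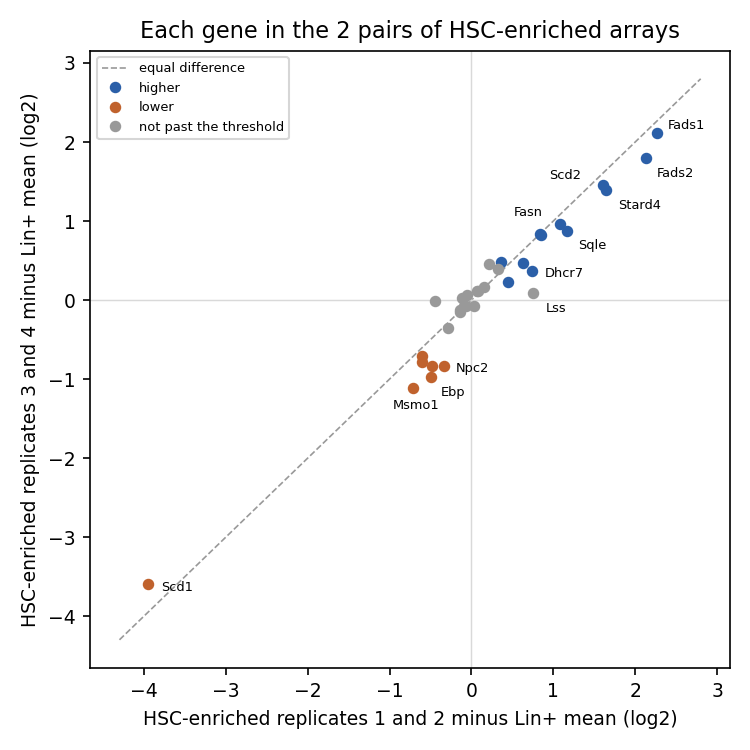
Difference from the Lin+ mean (log2) of each measured gene on HSC-enriched replicates 1 and 2 (horizontal axis) and on replicates 3 and 4 (vertical axis), coloured by the call over all 8 arrays. Points under the dashed line of equal difference are lower on replicates 3 and 4, as for Npc2 (-0.34 and -0.83) and Dhcr7 (0.74 and 0.37).

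Other genes of the same pathways, from a list of 78 of which 69 were measured, were as divided: 15 rose and 15 fell, or 21.7% each against 15.5% and 12.4% of all genes, with a median of 0.06. Of 8 measured genes listed under sterol and isoprenoid synthesis 1 rose (12.5% against 15.5% of all genes) and 2 fell (25.0% against 12.4%). The only one that rose was Acat1, a thiolase of mitochondria, by 1.95-fold (difference 0.96, adjusted p = 8.3e-05). Lbr, the lamin B receptor, which also has sterol reductase activity, fell by 1.38 (adjusted p = 8.3e-06). Aacs, the acetoacetyl-CoA synthetase, fell by 0.58 (adjusted p = 0.032), a call lost with the replicate block (0.075), without replicates 3 and 4 of the HSC-enriched cells (-0.41, adjusted p = 0.23) and without Lin+ replicate 3 or 4 or HSC-enriched replicate 1, 3 or 4 (0.07 to 0.088). Of 10 genes of SREBP processing and sterol sensing Ubxn8 alone passed (0.53, adjusted p = 0.01). It made up 10.0% higher, against 15.5% of all genes, with 0% lower against 12.4%.

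Of 18 genes of uptake, efflux and ester use 7 fell (38.9% against 12.4% of all genes) and 3 rose (16.7% against 15.5%), with a median of -0.24. Osbpl2, an oxysterol-binding protein, and Abcg4, a sterol exporter, fell by 1.41 and 1.39 (adjusted p = 0.00051 and 0.00022). Nceh1, a hydrolase of cholesteryl esters, rose 2.68-fold (difference 1.42, adjusted p = 3.1e-05) and Gramd1a, a sterol transfer protein, 1.71-fold (0.77, adjusted p = 0.0086). Gramd1a lost its call without HSC-enriched replicates 3 and 4 (0.71, adjusted p = 0.07).

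In further fatty acid and glycerolipid synthesis 10 of 33 rose (30.3% against 15.5% of all genes) and 6 fell (18.2% against 12.4%). Acsl3, which activates fatty acids, was at 4.59, 5.12, 5.02 and 4.77 on Lin+ and 6.78, 6.70, 6.49 and 6.36 on HSC-enriched arrays. It rose (difference 1.71, adjusted p = 1.2e-05), and no fold is given because its Lin+ mean of 4.88 was under the guide. Slc25a1, the mitochondrial citrate carrier, rose 2.47-fold (adjusted p = 7.4e-05). Dgat1 and Dgat2, the enzymes that complete triglyceride synthesis, went the other way. Dgat1 was at 8.77, 9.31, 9.28 and 9.12 on Lin+ and 6.98, 7.30, 7.08 and 7.20 on HSC-enriched arrays, and Dgat2 at 6.98, 7.34, 7.92 and 7.43 against 4.47, 4.91, 5.17 and 5.36. Neither overlapped, and the differences were -1.98 and -2.44 (adjusted p = 3.3e-06 and 2.1e-05), the HSC-enriched values of Dgat2 lying around the guide. Of 7 measured adipocyte marker genes 3 fell (42.9% against 12.4% of all genes) and 0 rose (0% against 15.5%). Their mean level was 4.81 to 5.30 on Lin+ and 4.57 to 5.14 on HSC-enriched arrays. The 3 that fell were Adipoq, Pparg and Lpl. Adipoq was at 4.05 or less on every array, under the guide, and Pparg overlapped between the groups. On HSC-enriched arrays Pparg and Lpl averaged 4.57 and 4.82, also under the guide. Fabp4, the fatty acid binding protein of adipocytes, did not pass (0.84, adjusted p = 0.49) and was uneven, at 5.89 to 7.81 on Lin+ arrays and 9.50, 6.12, 9.07 and 6.78 on HSC-enriched replicates 1 to 4. The part of these transcripts in the lipid gene differences was not tested.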

How the data were processed

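Total RNA of sorted cells was amplified, labelled with biotin and hybridised to Affymetrix MouseGene arrays, per the labels' protocols, which name 2 array versions without assigning them to samples. The authors deposited log2 values of 24973 probe sets on 8 arrays, and the submitters' processing notes name RMA and Partek, with no versions. The sources used here give neither build nor probe set definition. Rows were named through a table of the platform's genes, updated by Entrez gene ID through RefSeq (GRCm38.p6). 958 rows stayed unnamed, and the brightest row of a symbol was kept, leaving 24011 genes. The groups were compared by a moderated linear model in limma (version 3.58.1, under R 4.3.3; lmFit, eBayes) without covariates or filter, adjusted by Benjamini-Hochberg over all genes, at 0.05. The fit was checked on simulated data. The alternatives tried were array centring, renewed quantile scaling, filters on low values, averaged rows per gene, other variance models, weights per array, a replicate block, a 1.2-fold null and arrays left out. Every member is named, with values on each array where it passed without overlap. Of each list of other pathway genes, up to 2 rising and 2 falling genes with the largest differences are named. Neighbours of the Scd and Fads genes and the 4 promoters shown were chosen after values were seen. Members and lists were chosen with earlier results of these data known. Same-numbered replicates did not deviate together (correlations -0.15, 0.06, 0.03 and -0.10), so the numbers were not taken as pairs. No batch is given. Plots used matplotlib 3.10.9 under Python 3.11.15.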

Additional observations from a re-analysis of the deposited data

Results flagged for a closer look

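In groups of 4 arrays, 1 array stood apart by Dixon's ratio (95% critical value) in 9 of 170 groups examined, where chance gives about 1 in 20. Among members, Nsdhl was at 7.84 on Lin+ replicate 2 against 7.50 to 7.52 on the other Lin+ arrays, and Scd1 at 9.53 on Lin+ replicate 1 against 9.19 to 9.22. The mean level of the genes from squalene to cholesterol was 6.77 on Lin+ replicate 1 against 6.98 to 7.01. Of the other pathway genes, Abcg1 was at 7.41 on Lin+ replicate 4 against 7.66 to 7.68, Mid1ip1 at 8.33 on Lin+ replicate 1 against 8.59 to 8.64, and Scd4 at 4.17 on HSC-enriched replicate 1 against 3.87 to 3.89. Wnt8b, a neighbour of Scd1, was at 4.35 on Lin+ replicate 4 against 3.99 to 4.04. The mean level of the genes of uptake, efflux and ester use was 7.17 on HSC-enriched replicate 1 against 7.08 to 7.09. The B cell marker genes averaged 6.75 on HSC-enriched replicate 3 against 4.88 to 5.09 on the other 3.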

How the results depend on the processing

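Over 18 alternatives, 12 of the 19 members that passed kept their call in each one and 7 (Hmgcs1, Nsdhl, Ebp, Dhcr7, Scap, Npc2 and Acaca) lost it in at least one, while 1 of the 15 others gained one and 0 members changed direction with a call. All 7 lost it against a 1.2-fold null. Under that null 8 members were higher and 4 lower, against 2141 and 2047 of all 24011 genes. Of the other pathway genes 6 were then higher and 11 lower. Without HSC-enriched replicates 3 and 4 together, 11 members were higher and 4 lower, against 3152 and 2392 of all genes. With single arrays left out, 10 to 12 members were higher and 6 or 7 lower, against 3233 to 3640 and 2688 to 2933 of all genes. With the replicate number as a block, 11 members were higher and 7 lower, against 3379 and 2743 of all genes. Each Lin+ array's deviations correlated best with those of the same-numbered HSC-enriched array for 1 of 4 numbers. Having 4 arrays per group limits the precision, and no detection calls come with the values.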
